A study of Homo sapiens with 8 samples.

Results

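Gene expression was compared between a stable SW480 line labelled as expressing Snail and a stable SW480 line carrying the vector. The comparison took the arrays whose titles read SW480 Snail (2 arrays) and SW480 Vector (2 arrays), 4 of the 8 arrays of the series. SW480 is an established human colorectal adenocarcinoma line with truncated APC, so that beta-catenin signalling is constitutively active. Both lines were grown in high-glucose DMEM with 10% fetal bovine serum under the same conditions. The sources used here do not give the vector, its promoter or the number of clones behind each stable line. The other 4 arrays hold HT29 colorectal cancer cells, 2 of parental cells and 2 of spheres. They entered the estimate of each gene's spread and the choice of its probe set, but not the group means compared. Every one of the 19775 genes named by a probe set of its own was described, with a gene read by its probe set of highest mean over the 8 arrays. Values are log2 expression values, and a change is the mean of the Snail-labelled arrays minus the mean of the vector arrays, so that 1 unit is a doubling.

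Snail, the product of SNAI1, is a zinc-finger repressor that binds E-boxes in the promoters of epithelial genes and recruits histone deacetylases and demethylases there. It is best known for silencing E-cadherin during epithelial-mesenchymal transition (EMT), in which epithelial cells lose junctions and polarity and take on a migratory, matrix-producing state. In colon cancer cells it is also described as a repressor of the vitamin D receptor. The comparison asks what a Snail line changes against its control.

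SNAI1 itself was not higher in the line labelled Snail. Its probe set read 6.36 and 6.34 on the vector arrays and 6.32 and 6.38 on the Snail-labelled arrays, a change of 0.00 ± 0.15 (SE; limma adjusted p = 0.99). The pairs of values overlapped. SNAI1 has 1 probe set on the array, and the sources used here do not say where its probes lie, so an expressed construct that lacks the probed stretch would go unread. The SNAI1 values therefore do not bear the label out, and every direction below is that of arrays labelled Snail against arrays labelled vector.

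The 2 vector arrays correlated at 0.995 over all genes and the 2 Snail-labelled arrays at 0.995, against 0.980 between vector array 1 and Snail array 1. Only 19 and 10 genes were at least 2-fold apart within the pairs. The labels do not state whether the 2 members of a pair were grown apart, so the spread within pairs may be only technical. The p-values set the SW480 difference against the spread within all 4 groups, both HT29 groups included. A gene whose HT29 pair lay far apart can therefore miss the threshold although its SW480 pairs were close. INSIG1, with an SE of 0.42, read 8.82 and 10.63 on the HT29 parental arrays. Medians of the 4 SW480 arrays lay between 5.57 and 5.61. The 27 probe sets for bacterial transcripts read between 2.90 and 5.73. Values under about that level carry little information on whether a transcript was present. Colon epithelial markers EPCAM (11.73 to 12.15), KRT18 (13.63 to 13.99) and CDX2 (7.63 to 7.88) lay above that range on all 4 arrays, while KRT20, CDH17, LGALS4 and CEACAM5, markers of differentiated colonocytes, read 4.11 to 5.05. Of 20 markers of other cell types, 10 lay below the array medians, ACTA2 rose (0.73) and PECAM1 fell (-0.55), a call lost without vector array 1, vector array 2 or Snail array 2, with the mean of its 5 probe sets, 3 of which had the opposite sign, and after spike-in scaling. The hybridisation spike-ins were lower on the Snail-labelled arrays, by 0.26 (Cre) to 0.46 (BioC), and controls for ribosomal RNA were higher, by 1.40 (18S) and 0.94 (28S). Scaling the arrays on the spike-ins raised the median change of all genes from 0.01 to 0.38 and called 38.6% of all genes higher and 2.32% lower. Falls outnumbered rises in 16 of the 44 gene lists below with the deposited scaling, and in all 16 rises outnumbered falls after spike-in scaling. With 38.6% of all genes higher and 2.32% lower after that scaling, such a turn was close to fixed in advance. It does not show that a list lost its lean to falls relative to all genes. The balance of rises and falls within those lists depends on the scaling, and counts after spike-in scaling stand beside these shares.

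At an adjusted p under 0.05, 3213 of 19775 genes (16.2%) passed the test, 1762 higher (8.91%) and 1451 lower (7.34%) in the Snail-labelled arrays. Of these, 379 were at least 2-fold higher (1.92%) and 277 at least 2-fold lower (1.4%), and 28 and 27 at least 4-fold. Most calls were small: 2557 were below 2-fold, and the median size of a called change was 0.70 log2. Calls were least frequent among dim genes, at 3.70% of genes with an SW480 mean up to 5.03, against 11.7% from there to 6.57, 25.6% from there to 8.50 and 24.0% above. Without 1 of the 4 SW480 arrays the test called 1447 to 1602 genes, and 1073 genes (614 higher, 459 lower) were called with all arrays and in each of those 4 fits. The gene lists below stand beside the shares of all genes, 8.91% higher and 7.34% lower. Below, "rose" and "fell" mean past the threshold with all arrays. Such a call also held without each SW480 array in turn unless the arrays without which it was lost are named or counted. Each of those fits leaves 1 array in a group and so has less power. A lost call therefore does not by itself show that the call rested on the array left out. Where limma called 0 members of a list one way, the count at an unadjusted p under 0.05 follows.

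**Figure D1:**
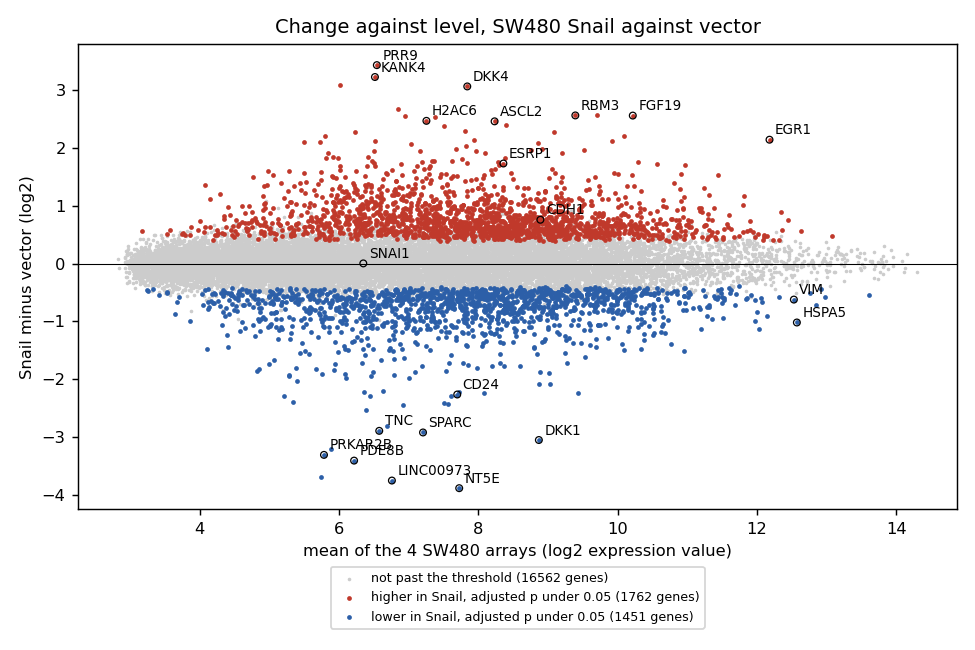
Change (Snail-labelled minus vector, log2, vertical axis) against the mean of the 4 SW480 arrays (log2 expression value, horizontal axis), 1 point per gene, red for the 1762 genes past the threshold and higher, blue for the 1451 lower, grey for the rest. SNAI1 lies at 0.00, while NT5E (-3.89) and PRR9 (3.43) mark the extremes.

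The 15 largest rises were of mixed function, from secreted Wnt and FGF pathway factors to a lipid sensor and an RNA-binding protein. PRR9, a proline-rich protein of the epidermal differentiation region, read 4.67 and 4.99 on the vector arrays and 8.34 and 8.18 on the Snail-labelled arrays (3.43 ± 0.19, adjusted p = 1.1e-05). KANK4, an ankyrin-repeat protein of the cytoskeleton, went from 5.14 and 4.66 to 8.04 and 8.23. ADGRG2, an adhesion G-protein-coupled receptor, went from 4.33 and 4.62 to 7.51 and 7.62. The vector values of these 3 genes lay below every array's median, so their fold is the least certain. DKK4, a secreted Wnt antagonist that is itself a target of the pathway, read 6.31 on both vector arrays and 9.29 and 9.46 on the Snail-labelled arrays, an 8.38-fold rise. FGF19, a hormone-like FGF that restrains bile acid synthesis, was bright in both lines, at 8.88 and 9.0 against 11.53 and 11.46. RBM3, an RNA-binding protein induced by mild cold, went from 8.01 and 8.21 to 10.68 and 10.66 (5.91-fold), and its other probe set changed by 1.10.

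IFI27, an interferon-induced mitochondrial protein, read 5.70 and 5.32 in vector cells and 8.07 and 8.31 on the Snail-labelled arrays. APOBEC3G, a cytidine deaminase that restricts retroviruses, went from 8.54 and 8.30 to 11.07 and 10.90, but its dimmer probe set gave -0.06. SLC7A11, the cystine importer that feeds glutathione synthesis, went from 5.75 and 5.59 to 8.25 and 8.21, and its other probe sets changed by 0.65 and 1.95. CXCL14, a chemokine of epithelia, went from 5.94 and 6.29 to 8.42 and 8.88. ASCL2, the transcription factor that maintains crypt base stem cells, went from 6.98 and 7.03 to 9.34 and 9.59 (2.46 ± 0.16, adjusted p = 1.6e-05). INSIG1, the sterol-sensing anchor that holds back SREBP, went from 7.07 and 7.34 to 9.60 and 9.62. The other members of the leading 15 were H2AC6, a histone H2A gene (2.47), KCNJ5, an inward rectifier potassium channel (2.39), and MCOLN3, an endolysosomal cation channel (2.30). The 6 probe sets of KCNJ5 spread from 0.07 to 3.86.

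The 15 largest falls held several extracellular and matrix proteins together with regulators of cyclic AMP. NT5E, the ectonucleotidase CD73 that makes adenosine from AMP and a surface marker of mesenchymal cells, read 9.75 and 9.59 on the vector arrays and 5.82 and 5.74 on the Snail-labelled arrays, a 14.8-fold fall (-3.89 ± 0.15, adjusted p = 3.2e-06). Its 3 other probe sets changed by -0.94, -2.66 and -3.29. LINC00973, a long non-coding RNA, went from 8.74 and 8.54 to 4.79 and 4.98. TMEM200A, a transmembrane protein, went from 7.67 and 7.52 to 3.70 and 4.11. PDE8B, a phosphodiesterase specific for cyclic AMP, went from 8.0 and 7.84 to 4.62 and 4.41, and PRKAR2B, a regulatory subunit that holds protein kinase A in check, from 7.39 and 7.49 to 3.96 and 4.30. SLC26A4, the anion exchanger pendrin, went from 7.27 and 7.71 to 4.50 and 4.06. In the 5 genes from LINC00973 to SLC26A4 the Snail-labelled values lay below every array's median, near the level of the bacterial control probe sets, so those folds may understate the difference.

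DKK1, a secreted Wnt antagonist like DKK4 but moving the other way, read 10.42 and 10.37 in vector cells and 7.18 and 7.51 on the Snail-labelled arrays (8.30-fold lower). SPARC, a collagen-binding matricellular protein, went from 8.64 and 8.70 to 5.74 and 5.75. TNC, the matricellular protein tenascin C, went from 8.12 and 7.94 to 5.38 and 4.89, and its dimmer probe sets changed by -0.79 and -0.39. HLA-DRA, the alpha chain of the class II molecule HLA-DR, went from 8.16 and 8.03 to 5.22 and 5.37. PLAT, tissue plasminogen activator, went from 7.49 and 7.83 to 5.15 and 5.11. The list closed with SLC16A9, a monocarboxylate transporter (-2.45), FRMD5, a FERM-domain protein at cell junctions (-2.43), LINC00513 (-2.41, with 0.05 in its dimmer probe set) and ESM1, a secreted proteoglycan of endothelium (-2.40). These 30 genes were chosen among those whose groups did not overlap. All 30 kept their call without each SW480 array and in the 10 other settings that tested them all, spike-in scaling and the mean of probe sets among them. Without the dimmest 40% and 60% of genes 17 and 11 of the 30 were left to test, and all of those were called.

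**Figure D2:**
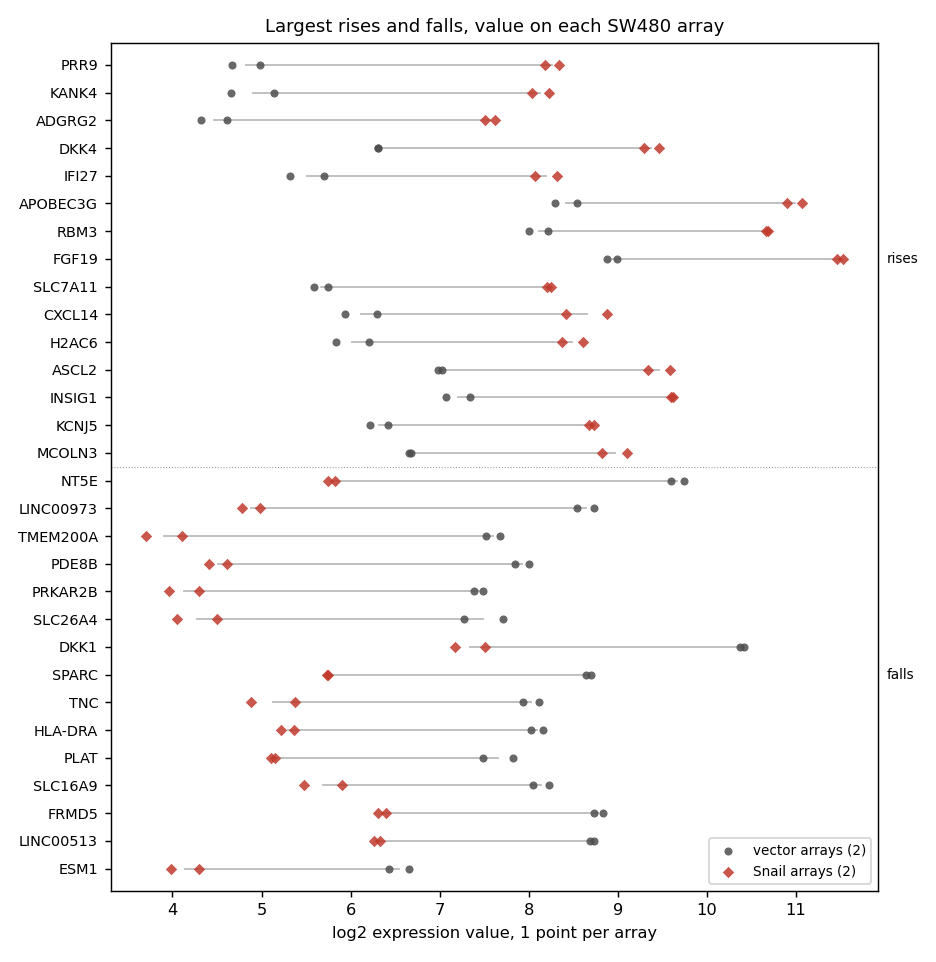
The 15 largest rises and 15 largest falls, with the log2 expression value of each SW480 array on the horizontal axis, grey circles for the 2 vector arrays, red diamonds for the 2 Snail-labelled arrays and a line joining the 2 group means. The genes were chosen among those whose groups do not overlap, and the arrays of a pair sit close together beside the gap between the groups.

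Genes described as repressed by Snail were more often higher than lower on the arrays that carry its name. Of 25 measured, 8 rose (32.0%, against 8.91% of all genes), 1 fell (4.0%, against 7.34%) and 16 did not pass, with a median change of 0.36 against 0.01 for all genes. The calls of 3 of the 8 held without each array: ESRP1, VDR and CLDN7. CDH1, E-cadherin, the textbook target, read 8.43 and 8.60 on the vector arrays and 9.30 and 9.24 on the Snail-labelled arrays (0.76 ± 0.17, adjusted p = 0.013). That call was lost without vector array 1, Snail array 1 or Snail array 2, and averaging its probe sets left 0.52 (adjusted p = 0.081). VDR, the vitamin D receptor, went from 8.75 and 8.41 to 9.78 and 9.81, and its 4 probe sets changed by 0.48 to 1.22. CLDN7, a tight junction claudin, read 8.52 and 8.50 against 9.67 and 9.45. ESRP1, a splicing regulator that keeps epithelial isoforms, went from 7.46 and 7.52 to 9.16 and 9.29 (3.32-fold), with 1.65 in its other probe set. CLDN3 was the member that fell (-0.94), from 8.49 and 8.08 to 7.18 and 7.51, a call lost without any of the 4 arrays and after scaling on the spike-ins. OCLN, occludin, changed by 0.13 ± 0.12 (adjusted p = 0.53) and CLDN1 by 0.40 ± 0.26 (adjusted p = 0.37).

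The E-box form bound by Snail, CAGGTG on either strand, was sought in the RefSeq promoter windows (GRCh38.p14, 250 bases before to 50 after the annotated start) of 15384 of the 19775 genes. It stood in 19.6% of all windows, in 17.3% of those of the 300 genes at least 2-fold higher that had a window and in 22.5% of those of the 218 at least 2-fold lower. CDH1, VDR, ESRP1 and GRHL2, also described as repressed by Snail, had no window and were not searched. Among 17 genes described as repressed by Snail with a window, 8 held the E-box (47.1%): CLDN3, OCLN, MUC1, DSP, CRB3, PATJ, HPGD and TJP1. Of these, DSP, TJP1 and HPGD rose, CLDN3 fell and 4 did not pass. CLDN7, which rose, held none. The 250 bases before the start of the 3 that rose are shown, 5′ to 3′ on the gene's strand, since they are the described targets with an E-box near the start whose values were higher on the Snail-labelled arrays; capitals mark CAGGTG. They are chr6:7541421-7541670 (+) for DSP, chr15:29969050-29969299 (-) for TJP1 and chr4:174522489-174522738 (-) for HPGD.
DSP: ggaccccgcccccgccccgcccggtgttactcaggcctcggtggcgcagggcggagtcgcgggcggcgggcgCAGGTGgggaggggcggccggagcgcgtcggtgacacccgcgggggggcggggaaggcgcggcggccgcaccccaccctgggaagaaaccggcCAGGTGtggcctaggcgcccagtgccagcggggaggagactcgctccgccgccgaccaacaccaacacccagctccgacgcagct
TJP1: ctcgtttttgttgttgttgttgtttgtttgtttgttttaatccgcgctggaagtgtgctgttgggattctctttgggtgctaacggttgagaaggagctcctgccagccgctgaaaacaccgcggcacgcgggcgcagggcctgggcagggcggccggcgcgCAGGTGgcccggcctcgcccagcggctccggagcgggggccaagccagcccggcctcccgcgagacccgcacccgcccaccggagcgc
HPGD: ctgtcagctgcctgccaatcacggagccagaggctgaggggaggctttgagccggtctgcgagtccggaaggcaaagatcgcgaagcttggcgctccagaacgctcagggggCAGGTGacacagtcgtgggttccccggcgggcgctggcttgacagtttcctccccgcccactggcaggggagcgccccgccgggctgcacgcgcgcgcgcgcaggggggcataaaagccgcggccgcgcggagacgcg

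The E-boxes of DSP begin 178 and 85 bases before the start, that of TJP1 88 bases before it and that of HPGD 138 bases before it. A match of these letters is not a measured binding site. DSP, the desmosomal plaque protein desmoplakin, read 9.90 and 9.80 against 10.86 and 10.75 (0.96 ± 0.20), a call lost without Snail array 1, Snail array 2 or vector array 2. TJP1, the tight junction scaffold ZO-1, read 10.31 and 10.18 against 10.82 and 10.91 (0.62 ± 0.13), lost without the same 3 arrays. HPGD, which breaks down prostaglandin E2, read 7.66 and 7.72 against 8.29 and 8.49 (0.70 ± 0.14), lost without vector array 1 or Snail array 2. Both Snail-labelled arrays lay above both vector arrays in all 3, as in 31.2% of all genes. The 3 were shown because they rose on these same arrays, so this adds no evidence.

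Epithelial junction and polarity genes, 5 of whose calls are in the list above too, were also more often higher. Of 36 measured, 11 rose (30.6%), 2 fell (5.56%) and 23 did not pass, at a median of 0.25, and 4 rises and 1 fall held without each array. PPL, the desmosomal linker periplakin, read 8.45 and 8.39 on the vector arrays and 9.32 and 9.48 on the Snail-labelled arrays. MARVELD3, a tight junction membrane protein (0.88), and PARD6B, a subunit of the apical polarity complex (0.92), rose with the probe set used, but the means of their probe sets were 0.30 and 0.34 and not past the threshold. JUP, plakoglobin (0.78), rose, a call lost without vector array 1 or Snail array 1. CLDN23 fell by 1.07, from 5.63 and 5.47 to 4.56 and 4.40, values around or under the array medians. Keratins, the intermediate filaments of epithelia, rose in 4 of 15 cases (26.7%) and fell in 1 (6.67%). KRT5, a basal-type keratin, read 11.94 and 11.86 against 12.86 and 12.73 (0.89 ± 0.14). KRT8 (0.57), KRT10 (0.56) and KRT19 (0.49) rose, and KRT15 fell (-0.62), each a call lost without any 1 of the 4 arrays, that of KRT15 after spike-in scaling too.

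Transcription factors and splicing regulators of the epithelial state held the largest changes of this kind: 8 of 19 rose (42.1%), 2 fell (10.5%) and 9 did not pass, and 5 rises held without each array. ESRP1 and GRHL2 are also in the list of genes described as repressed by Snail. EHF, an epithelial ETS factor, read 6.84 and 6.91 in vector cells and 8.92 and 9.11 on the Snail-labelled arrays (4.41-fold), and 5 of its 6 probe sets rose while the other gave -0.19. RBM47, an RNA-binding protein that acts beside ESRP1 in epithelial splicing, went from 6.05 and 6.36 to 7.61 and 7.45, and 3 of its 5 probe sets changed by 0.05 or less in size. GATA6, a factor of gut epithelium, went from 3.46 and 3.35 to 4.30 and 5.24, all 4 below the array medians. TFAP2A rose with the probe set used (1.15), while the mean of its 3 probe sets was 0.25 and not past the threshold. GRHL2, a guardian of epithelial junction genes, changed from 4.31 and 4.47 to 5.00 and 4.92, all 4 below the array medians too, a call lost without any 1 array. FOXA3 fell by 1.30, from 7.55 and 7.34 to 6.12 and 6.17, and FOXA2 by 0.83, the latter lost without any 1 array and after spike-in scaling. Both are forkhead factors of gut endoderm.

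Most markers of mature intestinal cells were dim. Of 31 enterocyte and brush border genes 1 rose (3.23%, against 8.91% of all genes) and 2 fell (6.45%, against 7.34%). The other 28 did not pass, and 24 of the 31 lay below the array medians, where calls were least frequent. CA2, carbonic anhydrase II, fell from 5.85 and 5.65 to 3.83 and 3.94, and VIL1, the microvillus protein villin, from 6.99 and 7.02 to 5.76 and 6.13. The VIL1 probe set brightest in SW480 changed by -0.52 and did not pass, and its dimmest ones changed by -0.17 and -0.27. USH1C, the scaffold harmonin of the brush border, rose from 6.30 and 6.37 to 7.57 and 7.45. Among 24 goblet and secretory genes 0 rose (2 at unadjusted p) and 2 fell: MUC13, a transmembrane mucin, went from 8.67 and 8.27 to 6.37 and 6.85 (3.63-fold lower), and LYZ, lysozyme, changed by -0.46, a call lost without any 1 array and after spike-in scaling.

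**Figure D3:**
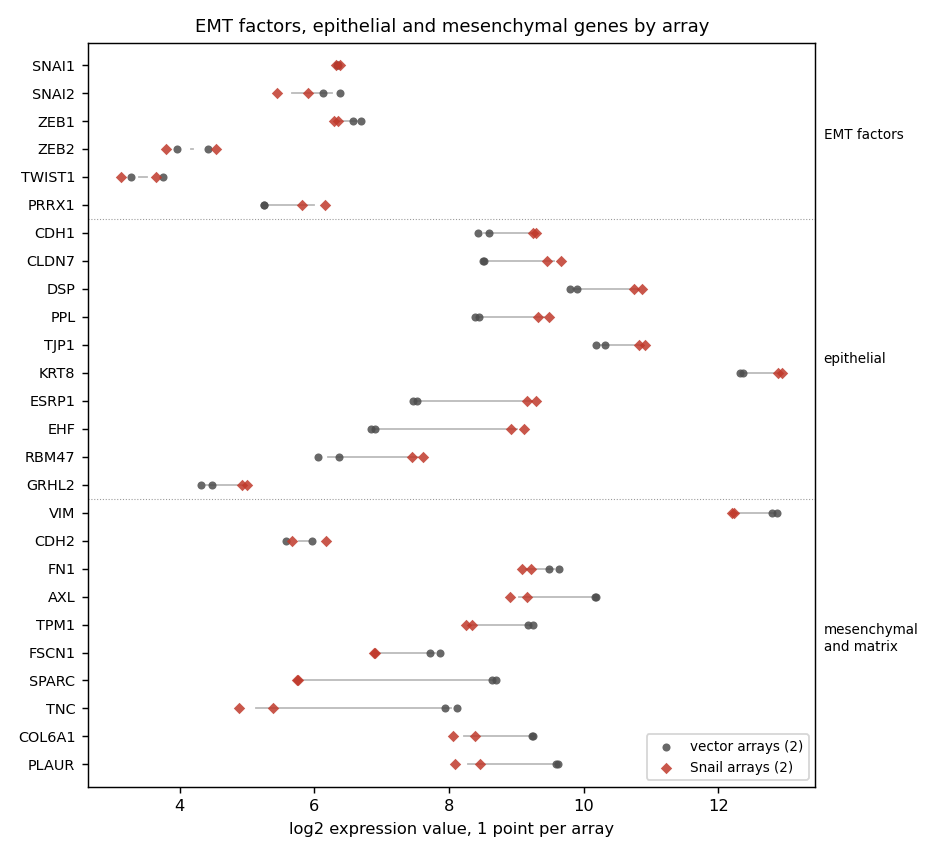
Log2 expression value of each SW480 array (horizontal axis) for EMT factors, epithelial genes and mesenchymal or matrix genes, with grey circles for the 2 vector arrays, red diamonds for the 2 Snail-labelled arrays and a line joining the group means. SNAI1, ZEB2, TWIST1 and CDH2 values overlap. The epithelial genes shown lie to the right in the Snail-labelled arrays and most mesenchymal genes shown lie to the left. The genes are a selection from the lists, and every epithelial gene shown rose, though the GRHL2 values lie below the array medians. CLDN3, CLDN23, KRT15, FOXA2 and FOXA3, which fell, are not shown, nor are ACTA2, CALD1 and TGFB2, which rose.

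EMT transcription factors passed the test at shares near those of all genes. Of 15 measured, SNAI1 among them, 1 rose (6.67%, against 8.91% of all genes) and 1 fell (6.67%, against 7.34%). The other 13 did not pass, and 7 of the 15 lay below the array medians, where calls were least frequent. SNAI2, the paralogue Slug, read 6.13 and 6.38 on the vector arrays and 5.91 and 5.44 on the Snail-labelled arrays (-0.58 ± 0.28, adjusted p = 0.20). ZEB1, a repressor downstream of Snail, read 6.68 and 6.57 against 6.29 and 6.35 (-0.31 ± 0.15, adjusted p = 0.19). ZEB2 (-0.02 ± 0.25) and TWIST1 (-0.12 ± 0.21) overlapped between the groups at values below the array medians. PRRX1, a homeobox EMT factor, rose from 5.26 and 5.25 to 5.81 and 6.16 (0.74), a call lost without Snail array 2, and the mean of its probe sets (0.56) did not pass. TCF3, an E-box binding factor, fell by 0.63 with the probe set used, lost without vector array 1, vector array 2 or Snail array 1 and after spike-in scaling. Its 14 probe sets ran from -0.92 to 0.46, and the brightest one in SW480 gave 0.15. Among 25 cofactors and stability factors of Snail 2 rose and 2 fell (8.0% each), near the shares of all genes. GSK3B, the kinase that marks Snail for destruction, read 8.50 and 8.41 against 9.28 and 9.22 (0.80 ± 0.12). The calls of LOXL2, a lysyl oxidase that stabilises Snail (-0.92), PRKD1, a kinase that drives its export (-0.53), and HDAC2, a corepressor (0.65), were each lost without at least 2 of the arrays, that of PRKD1 after spike-in scaling too, and the mean of the HDAC2 probe sets gave -0.10.

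Genes described as raised by Snail were lower more often than higher with the deposited scaling. Of 26 measured, 2 rose (7.69%), 5 fell (19.2%, against 7.34% of all genes) and 19 did not pass, with a median of -0.14. SPARC, TGFB1 and MMP9 were the falls that held without each array. After spike-in scaling 3 fell and 4 rose, at a median of 0.23 against 0.38 for all genes. Over all genes 2.32% fell and 38.6% rose after that scaling. MMP9, a gelatinase, read 7.30 and 7.37 against 6.28 and 6.26. VIM, vimentin, the mesenchymal intermediate filament, read 12.88 and 12.81 against 12.23 and 12.20 (-0.62 ± 0.14, adjusted p = 0.013), a call lost without any 1 array and after spike-in scaling, which gave -0.25. THBS1, thrombospondin 1, fell by 0.74, lost after spike-in scaling and without vector array 1, vector array 2 or Snail array 1. CXCL8, interleukin 8, rose from 5.75 and 5.85 to 6.96 and 7.29 (1.32 ± 0.28), lost without vector array 1 or Snail array 2. TGFB2 rose by 1.40 from values of 4.37 and 5.10, lost without vector array 1, Snail array 1 or Snail array 2. FN1, fibronectin, changed by -0.42 ± 0.21 (adjusted p = 0.23), CDH2, N-cadherin, by 0.15 ± 0.19 (adjusted p = 0.66), and CD44 by -0.15 ± 0.17 with the probe set used, its 13 probe sets ranging from -0.46 to 1.40.

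Cytoskeletal and adhesion genes of mesenchymal cells fell in 7 of 22 cases (31.8%) and rose in 2 (9.09%), at a median of -0.15. Of the falls 5 held without each array, and after spike-in scaling 5 members fell and 6 rose, at a median of 0.22. Over all genes 2.32% fell and 38.6% rose after that scaling, at a median of 0.38. AXL, a receptor tyrosine kinase of invasive cells, read 10.19 and 10.17 on the vector arrays and 8.91 and 9.16 on the Snail-labelled arrays (2.21-fold lower). FSCN1, the actin-bundling protein fascin, read 7.86 and 7.72 against 6.90 and 6.88. The tropomyosins TPM1 (-0.92) and TPM2 (-1.10), which stabilise actin filaments, and CAV1, the coat protein of caveolae (-0.88), fell too. ACTA2, smooth muscle actin, and CALD1, caldesmon, rose by 0.73 and 0.65 with the probe sets used, lost without Snail array 2 and vector array 2, and the means of their probe sets were 0.14 and 0.06.

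Secreted matrix proteins and the enzymes that remodel them were lower in part, and with the deposited scaling 0 members of the 3 lists that hold them rose (at unadjusted p 3 in the matricellular list, 2 collagens and 2 in the protease list). The counts after spike-in scaling stand beside 2.32% of all genes that fell and 38.6% that rose under it. In the matricellular and matrix list 8 of 22 fell (36.4%), 4 of which held without each array, while after spike-in scaling 5 fell and 7 rose. SERPINE2, an inhibitor of thrombin and plasminogen activators, read 9.89 and 9.94 against 7.79 and 7.88 (4.25-fold lower), while its dimmer probe set changed by 0.02. FBLN1, fibulin 1, fell by 0.94 with the probe set used, but the mean of 5 probe sets gave -0.36 and did not pass. Of 19 collagens 4 fell (21.1%), 3 of which held without each array, while after spike-in scaling 2 fell and 9 rose. COL6A1 read 9.24 on both vector arrays and 8.39 and 8.06 on the Snail-labelled arrays, and COL7A1, the anchoring fibril collagen of epithelial basement membranes, 8.23 and 8.12 against 7.12 and 7.05. COL13A1, a transmembrane collagen, fell by 0.79 and was not called after spike-in scaling. COL1A1, the chief fibrillar collagen, changed by -0.13 ± 0.16 (adjusted p = 0.66).

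Of 24 matrix proteases and their inhibitors 5 fell (20.8%), all of which held without each array, while after spike-in scaling 4 fell and 5 rose. The plasminogen activation system made up 3 of them. PLAU, urokinase, read 7.57 and 7.38 against 6.51 and 6.40, and its receptor PLAUR 9.62 and 9.59 against 8.46 and 8.09, beside the fall of PLAT given above. TIMP1, an inhibitor of metalloproteinases, read 11.64 and 11.70 against 10.93 and 10.97, a fall not called after spike-in scaling (-0.35). Over all genes 2.32% fell and 38.6% rose after that scaling. Integrins and laminins gave 1 rise and 1 fall among 20 (5.0% each, against 8.91% and 7.34% of all genes). ITGA2, the collagen-binding alpha 2 subunit, read 9.08 and 9.16 against 7.96 and 7.90. ITGB8, which activates latent TGF-beta, rose from 4.13 and 4.44 to 5.74 and 5.90, but its 5 probe sets averaged 0.35, which did not pass.

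Wnt target genes rose in 6 of 18 cases (33.3%) and 0 fell (2 at unadjusted p), at a median of 0.26, and 3 rises held without each array. Besides ASCL2 these were PROX1, a homeobox factor of colon tumour progression, at 6.35 and 6.44 against 8.18 and 7.90, and ZNRF3, a ubiquitin ligase that removes Wnt receptors, at 8.87 and 9.01 against 10.06 and 10.01. CCND1, cyclin D1, rose by 1.01, a call lost without vector array 1, Snail array 1 or Snail array 2 and with the mean of its probe sets. The feedback inhibitor AXIN2 (0.25 ± 0.12, adjusted p = 0.21), LEF1 (-0.30 ± 0.16, adjusted p = 0.25) and MYC (-0.20 ± 0.15, adjusted p = 0.45) did not pass. Among 12 Wnt antagonists 1 rose (8.33%, against 8.91% of all genes) and 2 fell (16.7%, against 7.34%). DKK4 and DKK1, given above, moved in opposite directions by changes of like size, 3.07 and -3.05. SFRP5, a secreted decoy of Wnt receptors, fell from 7.51 and 7.39 to 6.54 and 6.53.

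In the TGF-beta and BMP pathways 11 of 33 genes rose (33.3%), 4 fell (12.1%) and 18 did not pass. Ligands moved both ways. TGFB1 read 10.07 and 10.01 against 8.71 and 8.64 (2.59-fold lower), and INHBB, the activin B subunit, 5.56 and 5.48 against 7.45 and 7.50 (3.87-fold higher). GDF15, a stress-induced member of the family, went from 6.89 and 6.72 to 9.15 and 8.53, and its 3 probe sets averaged 0.71. Of the pathway's brakes, SMAD6, an inhibitory SMAD of BMP signalling, rose from 5.46 and 5.23 to 6.91 and 6.78, and SMURF2, a ubiquitin ligase for receptors and SMADs, by 0.99. ID2, a target of BMP signalling that inhibits differentiation factors, read 11.30 and 11.15 against 12.30 and 12.51. BMPR2, the type II BMP receptor, rose by 1.19 with the probe set used. The means of the probe sets of SMURF2 (0.34) and BMPR2 (0.18) did not pass, and the 6 probe sets of BMPR2 ran from -0.56 to 1.19. The other probe sets of SMAD6 changed by 0.33, 0.00 and 0.43 and did not pass. The receptor SMADs SMAD2 (0.58) and SMAD3 (-0.51) were called in opposite directions, each lost without any 1 array, that of SMAD3 after spike-in scaling too.

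Cyclic AMP signalling, in which phosphodiesterases break the messenger down and regulatory subunits hold protein kinase A inactive, held 8 falls (25%) and 3 rises (9.38%) among 32 genes. Of these 5 falls and 2 rises held without each array, while after spike-in scaling 4 fell and 11 rose. Over all genes 2.32% fell and 38.6% rose after that scaling. Besides PDE8B and PRKAR2B the falls were in PRKX, a catalytic kinase of the family, at 6.25 and 6.27 against 5.06 and 5.43, AKAP12, an anchoring protein, at 10.85 and 10.79 against 9.85 and 9.86, and PKIB, a kinase inhibitor (-0.71), which was not called after spike-in scaling or with the mean of its probe sets. The rises were in PDE4D, another phosphodiesterase specific for cyclic AMP, at 9.40 and 9.48 against 10.90 and 11.03 (2.88-fold), and RAPGEF3, the cyclic AMP receptor EPAC1, at 6.84 and 6.89 against 8.24 and 8.22. PRKAR1A, the other regulatory subunit past the threshold, changed by 0.54, lost without vector array 1, Snail array 1 or Snail array 2, and averaging its probe sets left 0.04. Among 21 purine ectoenzymes and receptors, 3 fell (14.3%, against 7.34% of all genes) and 1 rose (4.76%, against 8.91%). NT5E led them. SLC29A1, the nucleoside transporter ENT1, read 9.37 and 9.20 against 8.23 and 8.35, and ADK, adenosine kinase, 9.45 and 9.33 against 10.04 and 10.12. The adenosine receptor ADORA2B changed by -0.05 ± 0.12 (adjusted p = 0.82).

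Immediate early genes and feedback regulators of ERK signalling were higher in most cases: 14 of 25 rose (56.0%, against 8.91% of all genes), 2 fell (8.0%) and 9 did not pass, at a median of 0.67. Of the rises 8 held without each array. EGR1, a zinc-finger factor induced within minutes of growth factor signalling, read 11.07 and 11.15 on the vector arrays and 13.41 and 13.09 on the Snail-labelled arrays (2.14 ± 0.25, adjusted p = 5.3e-04). JUN read 9.17 and 9.07 against 10.49 and 10.18, and IER2 10.28 and 10.44 against 11.55 and 11.35. ATF3, a stress-induced factor, read 6.96 and 7.03 against 8.19 and 8.10, and FOSB 6.17 and 6.12 against 8.07 and 7.27. The other probe sets of ATF3 changed by 0.24 and 0.26 and did not pass. EGR3 (1.28), IER3 (0.75) and SPRY1, an inhibitor of receptor tyrosine kinase signalling (1.23), rose as well. In EGR1, FOSB, EGR3, JUN, IER2, IER3 and FOS Snail array 1 read higher than Snail array 2. FOS rose by 1.22 ± 0.30, a call lost without any 1 array. FOSL1, an AP-1 subunit of sustained ERK activity, fell from 10.69 and 10.72 to 9.74 and 9.49, a call lost without Snail array 2. DUSP6, the phosphatase that reports ERK activity, changed by 0.10 ± 0.13 (adjusted p = 0.68), ETV4 by -0.12 ± 0.15 (adjusted p = 0.65) and SPRY4 by 0.40 ± 0.18 (adjusted p = 0.17).

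Receptors and ligands of the EGF and FGF families moved both ways, with 4 rises (18.2%) and 3 falls (13.6%) among 22. These shares, and those of the Eph and Notch lists, stand beside 8.91% of all genes that rose and 7.34% that fell. FGF9, a ligand, rose beside FGF19, from 5.80 and 6.21 to 8.15 and 8.0 (2.07 ± 0.15). MET, the hepatocyte growth factor receptor kept in this list, read 9.14 and 9.03 against 7.25 and 7.38 (3.41-fold lower). EGFR fell by 0.83 with the probe set used, a call lost without vector array 1 or Snail array 1 and after spike-in scaling, and its 9 probe sets ran from -1.15 to 0.59. Of 17 Eph receptors and ephrins, which sort cells along the crypt, 0 rose (2 at unadjusted p) and 2 fell (11.8%), with EFNB2 at 8.44 and 8.24 against 7.19 and 7.43. In the Notch list 2 of 18 rose (11.1%) and 0 fell (2 at unadjusted p). MAML2, a coactivator of Notch, read 6.35 and 6.28 against 8.07 and 8.06, while HES1, its classical target, read 9.08 and 8.95 against 10.44 and 9.23 (0.82 ± 0.31, adjusted p = 0.11), with Snail array 1 far above the other 3.

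**Figure D4:**
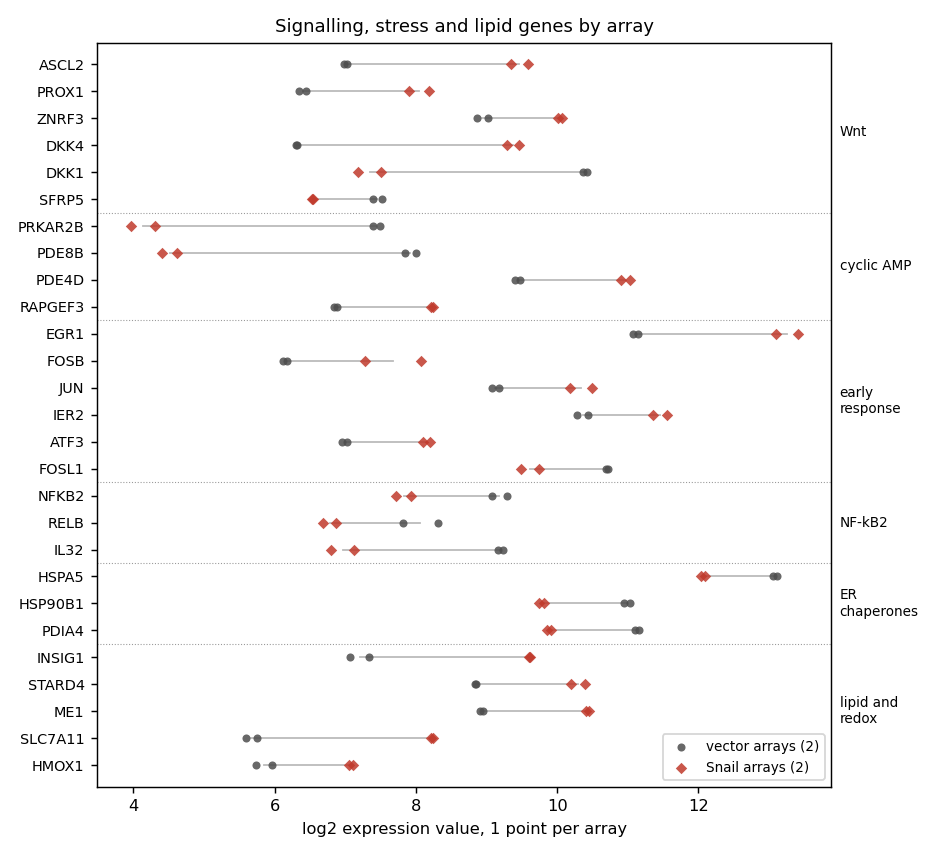
Log2 expression value of each SW480 array (horizontal axis) for genes of Wnt, cyclic AMP, early response, NF-kB2, endoplasmic reticulum (ER) chaperone, lipid and redox groups, with grey circles for the 2 vector arrays, red diamonds for the 2 Snail-labelled arrays and a line joining the group means. DKK4 and DKK1 move in opposite directions, as do PDE4D and PDE8B.

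Among cytokine and NF-kB genes several chemokines rose, while NFKB2 and RELB fell. Of 28 measured, 5 rose (17.9%), 4 fell (14.3%) and 19 did not pass, and 3 of each held without each array. The chemokines CXCL2, at 6.01 and 5.00 against 7.22 and 7.46, and CCL2, at 5.66 and 5.39 against 6.76 and 6.70, rose. So did LIF, a cytokine of the interleukin 6 family, at 7.66 and 7.76 against 8.84 and 8.65. A dimmer probe set of CXCL2 gave -0.20. IL32, a proinflammatory cytokine, read 9.24 and 9.16 against 6.80 and 7.12 (4.72-fold lower). NFKB2, the precursor of the p52 subunit, read 9.28 and 9.07 against 7.72 and 7.93, and RELB, its partner, 8.31 and 7.82 against 6.87 and 6.68. NFKBIA, the inhibitor of the canonical branch, changed by -0.45 ± 0.18 (adjusted p = 0.13).

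Interferon response genes went both ways: 7 of 30 rose (23.3%) and 5 fell (16.7%), and 3 of each held without each array. IFI27 rose most, followed by ISG20, an exonuclease, at 6.40 and 6.39 against 7.64 and 7.74, and IFIT3, which binds foreign RNA, at 6.28 and 5.92 against 7.0 and 6.97. The other probe set of IFIT3 changed by 0.18 and did not pass. BST2, the virus-tethering protein tetherin, fell from 8.84 and 8.70 to 7.29 and 7.40 (2.69-fold). IRF7 (-0.81) and OAS3 (-0.65) fell but were not called after spike-in scaling, under which 1 of the 30 fell. ISG15, a ubiquitin-like modifier, changed by -0.23 ± 0.12 (adjusted p = 0.25). Of 5 APOBEC3 deaminases, which edit cytosines in DNA and are largely interferon- or stress-responsive, APOBEC3G rose as given above and APOBEC3C by 0.76, lost without vector array 1 or Snail array 1. APOBEC3B, the member linked to mutation in tumours, read 11.26 and 11.10 against 10.69 and 10.81 (-0.43), a call lost without any 1 array and after spike-in scaling.

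Sterol and lipid synthesis genes rose in part, and 0 fell in either list (0 at unadjusted p too). Of 18 cholesterol synthesis and uptake genes 8 rose (44.4%), 3 of which held without each array, and the median was 0.62. INSIG1, given above, STARD4, a sterol carrier, at 8.84 and 8.86 against 10.19 and 10.39, and SREBF2, the master transcription factor, at 7.70 and 7.48 against 8.32 and 8.35, were those 3. The mean of the SREBF2 probe sets gave 0.35 and did not pass. The synthesis enzymes IDI1 (0.73), SC5D (0.76), HSD17B7 (0.69), SQLE (0.61) and FDPS (0.49) rose, each a call lost without at least 2 of the arrays. HMGCS1, an early enzyme of the pathway, changed by 0.65 ± 0.21 (adjusted p = 0.059). With the 4 SW480 arrays fitted alone, 11 of the 18 rose. In fatty acid synthesis 3 of 10 rose (30.0%). ME1, malic enzyme, which supplies NADPH, read 8.91 and 8.95 against 10.41 and 10.45 (2.83-fold), and SREBF1 7.34 and 7.20 against 8.52 and 8.57. The dimmer probe set of SREBF1 changed by 0.09 and did not pass. SCD, the stearoyl-CoA desaturase, rose by 1.10, a call lost without Snail array 1. FASN, the fatty acid synthase, changed by -0.01 ± 0.19 (adjusted p = 0.98).

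Hypoxia and glycolysis genes rose in 7 of 26 cases (26.9%), 5 of which held without each array, and fell in 2 (7.69%), neither of which fell after spike-in scaling. ADM, the vasodilator peptide adrenomedullin, read 7.76 and 7.85 against 9.91 and 9.88 (4.25-fold). SLC2A1, the glucose transporter GLUT1, read 10.25 on both vector arrays and 11.53 and 11.56 on the Snail-labelled arrays, and SLC2A3, GLUT3, 11.19 and 11.16 against 12.06 and 11.98. EGLN3, a prolyl hydroxylase of the oxygen sensor, rose by 1.16, and ANKRD37, a target of HIF, by 1.32 with its brighter probe set against -0.29 in the other. NDRG1 (-0.20 ± 0.35, adjusted p = 0.77) and VEGFA (0.21 ± 0.15, adjusted p = 0.39) did not pass. Among 21 NRF2 and oxidative stress genes 6 rose (28.6%) and 0 fell (1 at unadjusted p), and 4 rises held without each array. HMOX1, heme oxygenase 1, read 5.73 and 5.96 against 7.12 and 7.05, and stood with SLC7A11 and ME1. GCLC, the rate-limiting enzyme of glutathione synthesis, rose by 0.81, but the mean of its probe sets (0.39) did not pass. NQO1, the standard NRF2 reporter gene, changed by 0.44 ± 0.15 (adjusted p = 0.073), and 0 of 8 metallothioneins passed (1 at unadjusted p).

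In the amino acid and ER stress list 2 of 21 rose (9.52%, against 8.91% of all genes) and 3 fell (14.3%, against 7.34%). The falls were the chaperones of the ER lumen in the list, and all 3 held without each array and after spike-in scaling. HSPA5, the chaperone BiP, read 13.06 and 13.11 against 12.09 and 12.04, HSP90B1, GRP94, 11.03 and 10.95 against 9.74 and 9.82, and PDIA4, a disulfide isomerase, 11.15 and 11.10 against 9.86 and 9.91. The dimmer probe sets of HSP90B1 and HSPA5 changed by 0.11 and -0.26 and did not pass. ATF4, the transcription factor of the amino acid response, rose by 0.63, lost without vector array 1, Snail array 1 or Snail array 2, while its target ASNS changed by -0.33 ± 0.25 (adjusted p = 0.44) and DDIT3 by 0.01 ± 0.25. In oxidative phosphorylation 4 of 24 rose (16.7%), none of which held without each array, and 1 fell (4.17%): ATP5MC1, a subunit of the ATP synthase ring, from 11.08 and 10.99 to 10.13 and 10.30, not called after spike-in scaling. NDUFS1, a complex I subunit, changed by 0.52 with its brightest probe set and -0.11 over the mean of 5. Ribosome biogenesis gave 1 rise and 1 fall among 16 (6.25% each), near the shares of all genes. POLR1A, the largest subunit of RNA polymerase I, changed by -0.54 with the probe set used and 0.15 over the mean of 3, and was not called after spike-in scaling.

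Cell cycle genes are given beside 8.91% of all genes that rose and 7.34% that fell. Of 34 measured, 2 rose (5.88%), 2 fell (5.88%) and 30 did not pass, at a median of 0.01, and none of the 4 calls held without each array. After spike-in scaling, which called 38.6% of all genes higher and 2.32% lower, neither fall was called and 13 rose. MKI67, the proliferation antigen, changed by 0.30 ± 0.16 (adjusted p = 0.24), CCNB1, cyclin B1, by 0.37 ± 0.20 (adjusted p = 0.25) and TOP2A by -0.27 ± 0.13 (adjusted p = 0.22). Among 13 cyclin-dependent kinase inhibitors, D cyclins and their partners, CDKN1A, the inhibitor p21, read 8.96 and 9.05 against 10.15 and 9.93, and CDKN2B, the inhibitor p15, 7.55 and 7.37 against 5.85 and 6.15 (2.74-fold lower). These 2 calls, of 3 rises and 2 falls in the list, held without each array. In the BCL2 and death receptor list 4 of 19 rose (21.1%) and 4 fell (21.1%). BIK, a BH3-only killer protein, read 11.04 on both vector arrays and 9.64 and 9.81 on the Snail-labelled arrays, the only one of the 8 that held without each array. TNFSF10, the death ligand TRAIL, rose from 7.24 and 7.59 to 8.97 and 8.95 (1.55 ± 0.31), lost without vector array 1, Snail array 1 or Snail array 2. MCL1 changed by 0.03 ± 0.13 (adjusted p = 0.90).

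Stem cell markers and drug resistance genes are given beside 8.91% of all genes that rose and 7.34% that fell. The stem cell markers moved both ways. Of 18, 2 rose (11.1%) and 3 fell (16.7%), and all 5 held without each array. CD24, a surface glycoprotein used to sort colon cancer stem cells, read 8.83 on both vector arrays and 6.45 and 6.68 on the Snail-labelled arrays (4.81-fold lower), and its 6 probe sets changed by -2.56 to -1.04. DCLK1, a kinase of tuft cells, read 9.43 and 9.53 against 7.58 and 7.85, and ALCAM, the adhesion molecule CD166, 7.07 and 7.02 against 5.53 and 5.97. MSI2, an RNA-binding protein of progenitors, rose beside ASCL2, from 9.12 and 9.09 to 10.15 and 10.09. PROM1, the antigen CD133, lay at 3.40 to 3.89 on all 4 arrays and LGR5, the crypt base receptor, at 4.60 to 5.15, both below the array medians. Of 23 drug efflux and resistance genes 3 rose (13%) and 4 fell (17.4%), of which ALDH1A3, an aldehyde dehydrogenase, held without each array (9.67 and 9.52 against 10.47 and 10.83). After spike-in scaling 0 of the list fell and 9 rose, beside 2.32% and 38.6% of all genes. ABCB1, the efflux pump P-glycoprotein, changed by 0.58, a call lost without any 1 array and with the mean of its 2 probe sets (0.17). ABCG2 changed by -0.32 ± 0.14 (adjusted p = 0.14).

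Antigen presentation by MHC class I was slightly lower with the deposited scaling: 7 of 17 genes fell (41.2%) and 1 rose (5.88%), at a median of -0.40, but none of the falls held without each array. After spike-in scaling 0 fell, 5 rose and the median was -0.03. Over all genes 2.32% fell and 38.6% rose after that scaling, at a median of 0.38. HLA-B read 12.25 and 12.33 against 11.69 and 11.64 (-0.63 ± 0.12), lost without vector array 2 or Snail array 2, and B2M, the shared light chain, changed by -0.02 ± 0.13 (adjusted p = 0.94). Among 24 HOX genes 0 rose (0 at unadjusted p too) and 3 fell (12.5%), of which HOXB8, at 8.84 and 8.56 against 7.63 and 7.60, lost its call only without vector array 1, and it also fell after spike-in scaling. In the S100 family, small calcium-binding proteins, 2 of 15 rose (13.3%) and 1 fell (6.67%, not called after spike-in scaling), with S100A3 at 9.43 and 9.53 against 10.22 and 10.28 and S100A4 at 0.20 ± 0.12 (limma adjusted p = 0.30). The HOX and S100 shares stand beside 8.91% of all genes that rose and 7.34% that fell.

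**Figure D5:**
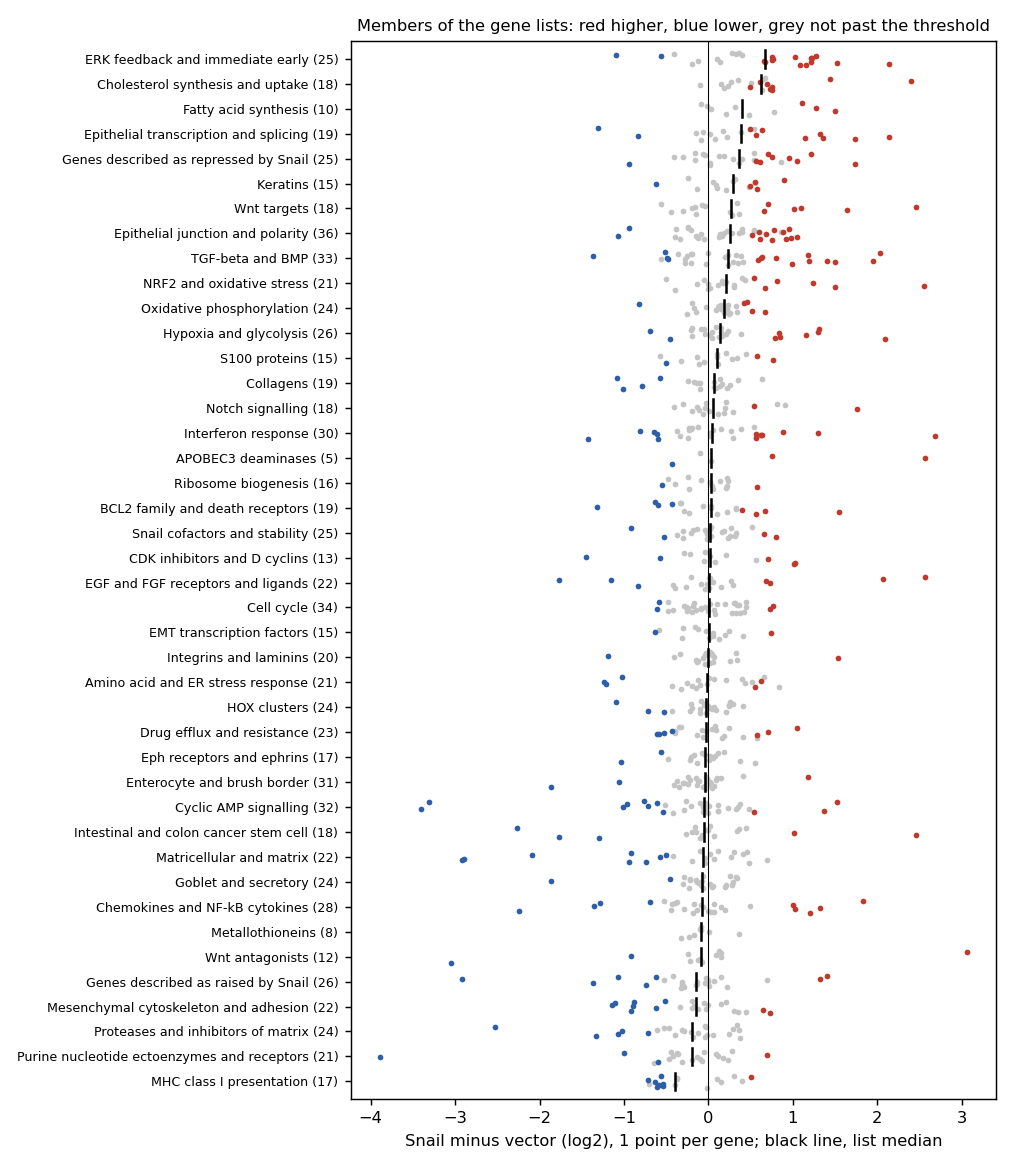
Change (Snail-labelled minus vector, log2, horizontal axis) of each measured gene in the gene lists (vertical axis, number of genes in brackets), red for genes past the threshold and higher, blue for lower and grey for not past, with a black line at each list's median. Lists are ordered by median, from 0.67 in the ERK and immediate early list to -0.40 in the MHC class I list.

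Other short motifs were counted in the same promoter windows, on both strands. The AP-1 core TGANTCA stood in 5.84% of all windows, in 5.67% of those at least 2-fold higher and in 11.5% (25 of 218) of those at least 2-fold lower. The cyclic AMP response element TGACGTCA stood in 2.67%, 1.67% and 2.75%, and the TCF/LEF core ATCAAAG in 1.92%, 0.333% and 1.38%. A shortened interferon-stimulated response element, GAAA and again GAAA after any 2 bases, stood in 2.94%, 4.0% and 0.917%, and the antioxidant response element core TGACNNNGC in 14.8%, 15.3% and 17.0%. The AP-1, cyclic AMP and antioxidant motifs share their first bases, so 1 stretch can be counted for more than 1 of them. These shares describe the letters in the windows, not binding.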

How the data were processed

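The series holds 8 Affymetrix arrays of 54675 probe sets, 1 per RNA sample. The authors deposited log2 expression values, computed by RMA, per the submitters' processing notes. The sources used here give neither its version nor its probe definitions nor which arrays it took together. RMA sets arrays to a common distribution, which hides any shift shared by all genes, so scaling on the hybridisation spike-ins was tried. No detection call was used, and 2 arrays per group limit the precision.

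Names came from the platform annotation kept by GEO and the RefSeq gene table of GRCh38.p14: 41091 probe sets named 1 gene, 1801 several and 11721 none, and 62 were controls. Of 19775 genes, 10523 had several probe sets, and all probe sets of named genes were compared.

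Group means were fitted to all 8 arrays with limma 3.58.1 in R 4.3.3 (4 residual and 6.10 prior degrees of freedom), two-sided, with Benjamini-Hochberg adjustment over all genes and a threshold of 0.05. Errors are limma's SE. An exact permutation test of 2 arrays against 2 cannot go below p = 0.333 and was not used. The fit was first tested on simulated data. Leaving out 1 array leaves 1 array in a group, assumed to vary like the other groups.

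The comparison, the 44 gene lists (923 of 1002 entries measured) and the naming rule were chosen with earlier results of these data known. The rule named SNAI1, the 15 largest changes each way with arrays apart, and up to 4 members per list with the lowest limma adjusted p. It also named a set given in every case, mostly genes tied to EMT, with NT5E, PRKAR2B, PDE8B and LINC00973 among them. Other list members named were chosen after their values were seen. Alternatives covered the samples fitted, normalisation, dim genes, probe set choice, array weights and the replicate block.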

Additional observations from a re-analysis of the deposited data

Results flagged for a closer look

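Signals outside the gene table also differed between the lines. The 3 control probe sets for 18S ribosomal RNA, which carries no poly(A) tail, had means of 5.17 and 5.53 on the vector arrays and 6.60 and 6.90 on the Snail-labelled arrays, a difference of 1.40 log2. The 3 for 28S ribosomal RNA differed by 0.94. The control probe sets for GAPDH differed by 0.24 and those for beta-actin by -0.10. The difference between the 3′ and 5′ probe sets of beta-actin, a measure of RNA integrity, was 0.12 to 0.22 on the 4 arrays.

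Among the 11721 probe sets that the annotation used does not name, 781 (6.66%) passed the same test, 315 higher and 466 lower on the Snail-labelled arrays. Of the 1801 probe sets that name several genes, 272 (15.1%) passed. These stayed out of the gene table.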

How the results depend on the processing

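The count of 3213 genes fell to between 1447 and 1602 without 1 SW480 array, while the count at least 2-fold stayed at 635 to 692 against 656. Spike-in scaling called 8088 genes (1241 at least 2-fold), 94.3% of them higher against 54.8% with the deposited values. With the mean of a gene's probe sets 414 genes were at least 2-fold, and 48.6% of all calls were higher. Without the dimmest 60% of genes 347 were at least 2-fold, with fewer genes tested. The other settings called 2826 to 4649 genes. Among them, the 4 SW480 arrays alone gave 4004 genes, and the fit without the HT29 parental arrays 4087. The spread of the HT29 arrays thus entered which SW480 genes did not pass. TCF3 turned to 0.15 with the brightest probe set in SW480, and with the mean of probe sets HDAC2 turned to -0.10, NDUFS1 to -0.11 and POLR1A to 0.15. The cause of these moves was not tested.

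Replicate numbers did not pair the arrays: deviations of same-numbered SW480 arrays from their group means correlated at -0.03, and the fit with the replicate number as a block called 3105 genes. Of 160 named genes past the threshold, 108 stayed past it without each SW480 array and 52 did not. With 2 arrays a group, and with values near those of bacterial control probe sets, small changes and folds of dim genes are the least certain.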

Other observations

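Groups noticed only after the values were seen are given here as descriptions, with no test of the group, beside 8.91% of all genes that rose and 7.34% that fell. After spike-in scaling those shares were 38.6% and 2.32%. The groups count the genes that drew attention to them, such as HLA-DRA and NFKB2, so their shares are high by selection. HSPA5, HSP90B1, PDIA4, NFKB2 and RELB were also counted in lists above. Genes of antigen presentation by MHC class II fell beside HLA-DRA: of 12 measured, 0 rose (1 at unadjusted p by limma) and 5 fell (41.7%), 4 of which held without each SW480 array, while after spike-in scaling 4 fell and 2 rose. CD74, the invariant chain, read 10.30 and 9.96 on the vector arrays and 8.42 and 8.40 on the Snail-labelled arrays (-1.73 ± 0.23). HLA-DPA1 (-1.56) and HLA-DRB1 (-0.83) fell too. Chaperones and folding enzymes of the ER fell in 14 of 19 cases (73.7%), 6 of which held without each array, at a median of -0.66, and 7 of them fell after spike-in scaling. SERPINH1, the collagen chaperone HSP47, read 11.55 and 11.36 against 10.08 and 10.05 (2.61-fold lower), and P4HB, the disulfide isomerase that is also a subunit of the collagen prolyl hydroxylase, 12.57 and 12.62 against 11.72 and 11.65. Of 10 genes of noncanonical NF-kB signalling and its TNF family ligands and receptors, 7 fell (70.0%) and all 7 held without each array and fell after spike-in scaling. EBI3, a cytokine subunit that is counted here but belongs to neither that branch nor the TNF family, read 7.15 and 6.93 against 5.09 and 5.17 (-1.91 ± 0.19). LTB, lymphotoxin beta, read 8.51 and 8.61 against 7.08 and 7.18. MAP3K14, the kinase that starts the noncanonical branch, fell by 0.98.

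Replication-dependent histone genes, whose transcripts normally end in a stem-loop in place of a poly(A) tail, rose in 15 of 43 cases (34.9%) and fell in 0 (3 at unadjusted p by limma), at a median of 0.25, and 6 rises held without each array. H2BC12 read 8.97 and 9.01 against 11.38 and 11.03 (2.21 ± 0.27), and H1-2, a linker histone, 7.56 and 7.38 against 9.36 and 9.24. The ribosomal RNA control probe sets, which also read transcripts without a poly(A) tail, moved the same way, and the part of RNA preparation in these values was not tested. Histone genes of a cluster share sequence, so their probe sets are not independent. CIRBP, the other cold-inducible RNA-binding protein beside RBM3, rose from 8.39 and 8.17 to 9.30 and 9.50, while the mean of its 5 probe sets gave 0.23.

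The change was also described along the chromosomes, without a test. Over 19243 overlapping windows of 21 consecutive genes on a chromosome, the 1st and 99th percentiles of the median change were -0.29 and 0.26. The windows named here are the extremes of that scan, so they lie beyond these percentiles by selection. Whether neighbouring genes moved together more than genes in a random order was not tested. The highest windows ran from ANKRD30B to IMPACT (median 0.47, 7 rose and 1 fell, GATA6 among them) and from KCNE1 to DYRK1A (0.40, 9 rose and 2 fell). The lowest ran from RALGDS to BRD3 (-0.46) and from WDR54 to EVA1A (-0.44), each with 0 rises and 10 falls.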
